A study of Mus musculus with 18 samples.

Results

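The subject here is the mevalonate pathway to squalene, represented by 9 genes taken by symbol (*Acat2*, *Hmgcs1*, *Mvk*, *Pmvk*, *Mvd*, *Idi1*, *Fdps*, *Fdft1* and *Sqle*) and matched to their Ensembl identifiers. All 9 were found among the 22524 genes listed for each mouse, and all 9 passed the filter on low counts. Liver RNA was sequenced from 10 A226Y mice and from 8 wild-type (WT) control mice, all of them females on a C57BL/6 background at 15 months of age, with 1 library per mouse. A226Y mice are heterozygous for a knock-in allele of *Rps2*, a protein of the small ribosomal subunit, whose A226Y change lowers the accuracy of translation. The allele is opened by a CMV-Cre transgene, in which the CMV promoter drives Cre recombinase in all tissues, and the WT mice carried Cre as well. Excision of the loxP-flanked stop cassette was incomplete, so A226Y livers are mosaics that also contain cells with a silent targeted allele, and effects of the A226Y protein and of a lower *Rps2* dose cannot be told apart in these libraries.

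The mevalonate pathway builds isoprenoid units from acetyl-CoA. Thiolase and synthase reactions first join acetyl groups, mevalonate is then phosphorylated and decarboxylated to isopentenyl diphosphate, and these units are condensed to farnesyl diphosphate and on to squalene, the precursor of the sterols. In the liver the genes of the pathway are classic targets of SREBP-2 (encoded by *Srebf2*), a membrane-bound transcription factor that is cut and released when the sterol content of the endoplasmic reticulum falls. Nuclear SREBP acts at sterol regulatory elements, usually together with the general factors NF-Y and Sp1.

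Because SREBP-2, NF-Y and Sp1 act near the start of these genes, the sequence before the start is shown for 4 members. RefSeq promoters on GRCm38.p6, each of 250 bases before to 50 bases after an annotated start, were matched for 6 members (*Acat2*, *Hmgcs1*, *Mvk*, *Pmvk*, *Mvd* and *Idi1*) and not for *Fdps*, *Fdft1* and *Sqle*. The 180 bases before the start are printed 5′ to 3′ on the strand of the gene. They lie at chr13:119690171-119690350 on the plus strand for *Hmgcs1*, chr5:114444089-114444268 on the plus strand for *Mvk*, chr3:89454361-89454540 on the plus strand for *Pmvk* and chr8:122443423-122443602 on the minus strand for *Mvd*. Capitals mark TCACNCCAC, the core of a sterol regulatory element, and CCAAT, the NF-Y motif, which reads ATTGG on the other strand.
Hmgcs1: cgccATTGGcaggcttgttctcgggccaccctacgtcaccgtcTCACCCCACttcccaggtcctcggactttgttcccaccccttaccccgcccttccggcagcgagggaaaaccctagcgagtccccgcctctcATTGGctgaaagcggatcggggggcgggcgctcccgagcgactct
Mvk: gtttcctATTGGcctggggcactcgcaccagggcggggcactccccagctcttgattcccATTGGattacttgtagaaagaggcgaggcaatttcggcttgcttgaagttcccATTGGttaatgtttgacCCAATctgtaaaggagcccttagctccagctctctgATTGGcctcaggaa
Pmvk: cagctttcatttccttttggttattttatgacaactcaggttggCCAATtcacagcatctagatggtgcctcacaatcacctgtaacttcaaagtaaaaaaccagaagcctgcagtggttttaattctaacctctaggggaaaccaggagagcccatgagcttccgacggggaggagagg
Mvd: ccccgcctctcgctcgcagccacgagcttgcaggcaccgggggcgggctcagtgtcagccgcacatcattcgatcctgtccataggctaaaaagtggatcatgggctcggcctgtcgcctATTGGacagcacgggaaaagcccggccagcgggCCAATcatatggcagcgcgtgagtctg

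Both strands of the whole RefSeq promoters were searched. TCACNCCAC was found for 1 of the 6 members, *Hmgcs1*, and for 1.44% of all 27025 genes with promoters of this length. CCAAT was found for 5 of the 6 members, all but *Acat2*, and for 41.1% of all genes. *Pmvk* has a further RefSeq promoter, which held none of the motifs. *Mvk* held 5 copies of CCAAT, the highest number among the members, of which 4 are written as ATTGG in the printed stretch. The Sp1 motif GGGCGG was found for 5 of the 6 members, all but *Pmvk*, and for 38.2% of all genes. Matches of different motifs did not overlap. These are matches of letters, and binding was not measured.

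Libraries held between 23850565 and 62126131 counts in A226Y mice and between 25869192 and 34918732 in WT mice. Counts of the members ran from 17 (*Idi1* in a single mouse) to 12351 (*Hmgcs1*). *Alb*, the albumin gene of hepatocytes, was the most abundant gene in every library. *Rps2* itself, counted over both alleles, stood at 68.6 ± 13.3 CPM in A226Y mice (SD, n = 10) and at 114.1 ± 13.03 CPM in WT mice (SD, n = 8), and all 10 A226Y values lay below all WT values. CPM is the count of a gene scaled to sequencing depth, here after TMM scaling of the library size. A gene is called lower or higher in A226Y mice where the adjusted p of edgeR's quasi-likelihood test, corrected with the Benjamini-Hochberg method over all 13353 tested genes, was under 0.05.

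All 9 members had a negative log2 fold change in A226Y against WT liver, and 5 of the 9 were called lower: *Mvk*, *Pmvk*, *Mvd*, *Fdps* and *Fdft1*. None was called higher. Among all 13353 tested genes, 7.03% were called lower and 14.3% were called in either direction. The median log2 fold change of the members was −0.96, against −0.004 over all tested genes, and 51.0% of all tested genes had a negative value. In bulk liver, fewer cells that express a gene and less RNA of it per cell cannot be told apart. The number of members called depended on single mice. Without WT 14, 2 members remained called (*Pmvk* and *Fdps*), without WT 4 or without A226Y 23 the number was 8, and without WT 28 it was 7. Limma-voom called 3 members lower (*Pmvk*, *Fdps* and *Fdft1*), and an edgeR fit with 4 surrogate variables, covariates estimated from the same libraries, called 0, with 5 at an unadjusted p under 0.05.

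**Figure D1:**
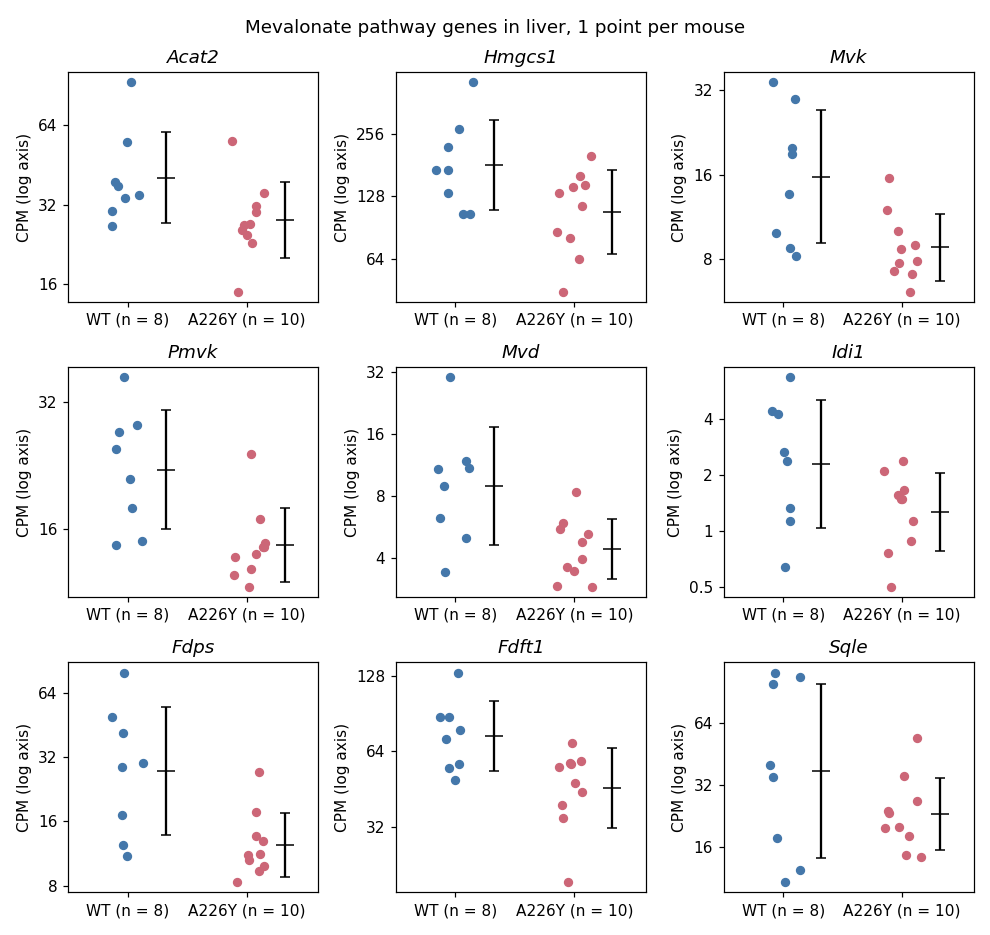
Expression of the 9 genes in liver, with 1 point per mouse, CPM on a log2-spaced axis, WT mice in blue (n = 8) and A226Y mice in red (n = 10). Black bars give the mean of log2 CPM ± SD, and the genotypes overlap for every gene: the highest A226Y value for *Fdps*, 27.2 CPM, lies below 5 of the 8 WT mice and above the other WT values.

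The entry of carbon into the pathway is represented by *Acat2* and *Hmgcs1*. *Acat2* (ENSMUSG00000023832, chr17:12942890-12960747, minus strand) encodes the cytosolic thiolase that joins a pair of acetyl-CoA molecules. Its CPM had a lowest value of 14.9, a median of 26.9 and a highest value of 55.7 in A226Y mice, against 26.6, 36.1 and 93.3 in WT mice. Of the 10 A226Y mice, 4 lay below every WT mouse, A226Y 5 was far above the rest of its genotype, and the others lay within the lower part of the WT range. The log2 fold change of −0.57 (SE 0.23) did not pass the threshold (adjusted p = 0.103, edgeR). It was −0.32 without WT 14, and without A226Y 5 it was −0.72 with an adjusted p of 0.0294 from edgeR. *Acat2* has a close relative, *Acat3*, and reads that match both could have been counted for either, so its values are uncertain.

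*Hmgcs1* (ENSMUSG00000093930, chr13:119690379-119708260, plus strand) encodes the cytosolic synthase that forms HMG-CoA. The lowest, median and highest CPM were 44.7, 123.9 and 200.7 in A226Y mice and 104.8, 170.8 and 451.6 in WT mice. WT 14 stood far above the other WT mice, 4 A226Y mice lay below the whole WT group, and the middle of both groups overlapped. Its log2 fold change was −0.80 (SE 0.29) with an adjusted p of 0.0708 (edgeR), so it was not called. Without WT 14 the log2 fold change was −0.52, and without WT 4 or A226Y 23 the adjusted p of edgeR was 0.0489 or 0.0451.

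The next 3 genes, which turn mevalonate into isopentenyl diphosphate, were all called lower. *Mvk* (ENSMUSG00000041939, chr5:114444269-114460591, plus strand) encodes mevalonate kinase. Its CPM was 6.11 at the lowest, 8.27 at the median and 15.5 at the highest in A226Y mice, and 8.21, 16.25 and 34.2 in WT mice. Every A226Y mouse was below the WT median, while 1 WT mouse, WT 21, was at or below the A226Y median. The log2 fold change was −0.96 (SE 0.26, adjusted p = 0.0186, edgeR), and without WT 14 it was −0.76 with an adjusted p of 0.0531.

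*Pmvk* (ENSMUSG00000027952, chr3:89454541-89469013, plus strand) encodes phosphomevalonate kinase, which adds a further phosphate. In A226Y mice the CPM ranged from 11.7 to 24.2 with a median of 14.3, and in WT mice from 14.7 to 36.7 with a median of 22.9. Of the 10 A226Y mice, 7 lay below the lowest WT mouse, the largest such number among the members, and A226Y 23 alone reached above the WT median. *Pmvk* fell by 0.62 on the log2 scale (SE 0.17, adjusted p = 0.0175, edgeR), and it was called in all 18 fits that left out 1 mouse.

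*Mvd* (ENSMUSG00000006517, chr8:122433601-122443422, minus strand) encodes the decarboxylase that yields isopentenyl diphosphate. Values of 2.92, 4.39 and 8.45 CPM were the lowest, median and highest in A226Y mice, against 3.45, 9.93 and 30.2 CPM in WT mice. The WT group was spread 8.75-fold from lowest to highest, the A226Y group 2.90-fold, and 5 WT mice were above every A226Y mouse. The log2 fold change of −1.21 (SE 0.32, adjusted p = 0.0173, edgeR) shrank to −0.79 without WT 14, where the adjusted p was 0.0501.

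*Idi1* (ENSMUSG00000058258, chr13:8885501-8892451, plus strand) encodes the isomerase that converts isopentenyl diphosphate to dimethylallyl diphosphate. It was the least abundant member, with a lowest CPM of 0.4995, a median of 1.48 and a highest of 2.37 in A226Y mice and 0.639, 2.53 and 6.71 in WT mice. All 10 A226Y mice were below the WT median, but 3 WT mice (WT 4, WT 21 and WT 28) lay at or below the A226Y median. Its log2 fold change was −1.05 (SE 0.37) and did not pass the threshold in edgeR (adjusted p = 0.0603). The adjusted p was 0.0242 with DESeq2, and with edgeR it was 0.0384 without WT 4, 0.0247 without WT 28 and 0.0472 without A226Y 23. In the other direction it was 0.171 without WT 14 (edgeR) and 0.232 with limma-voom.

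*Fdps* (ENSMUSG00000059743, chr3:89093588-89101959, minus strand) encodes farnesyl diphosphate synthase, at the branch between sterols and other isoprenoids, and it had the most negative fold change of the 9 genes. The lowest, median and highest CPM were 8.33, 11.2 and 27.2 in A226Y mice and 10.99, 29.4 and 79.9 in WT mice. All A226Y mice were below the WT median, and 5 of 8 WT mice exceeded every A226Y mouse. *Fdps* fell by 1.34 on the log2 scale (SE 0.33, adjusted p = 0.0112, edgeR), to 0.395 of the WT level, and stayed called in all 18 fits that left out 1 mouse.

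Reads of *Fdps* cannot be fully separated from those of *Gm43738*, a protein-coding gene model on the same strand that shares 1124 bases, or 26.7%, of the *Fdps* exons. *Gm43738* was itself called lower, with a log2 fold change of −1.12 (SE 0.27, adjusted p = 0.0109, edgeR).

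The last pair of genes makes squalene and oxidizes it. *Fdft1* (ENSMUSG00000021273, chr14:63145150-63179578, minus strand) encodes squalene synthase, the first enzyme committed to sterols. Its CPM ranged from 19.3 to 69.2 with a median of 51.7 in A226Y mice and from 49.2 to 131.8 with a median of 74.7 in WT mice. A226Y 29 was lowest by a wide margin, 5 A226Y mice lay below every WT mouse, and all 10 lay below the WT median. The log2 fold change of −0.67 (SE 0.21) passed the threshold with an adjusted p of 0.0344 (edgeR). This call was lost, with adjusted p-values between 0.0514 and 0.0914, when any of A226Y 7, A226Y 15, A226Y 32, WT 13, WT 14, WT 24 or WT 33 was left out.

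The exons of *Fdft1* share 774 bases, or 18.3% of their length, with *Ctsb* on the opposite strand. *Ctsb*, the gene of the lysosomal protease cathepsin B, ranged from 560.9 to 823.3 CPM in A226Y mice and from 652.3 to 988.5 CPM in WT mice, with a log2 fold change of −0.35 (adjusted p = 0.0146, edgeR). Whether counting used strand is not given in the sources used here, and the part of *Ctsb* reads in the *Fdft1* values was not tested.

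*Sqle* (ENSMUSG00000022351, chr15:59315077-59331192, plus strand) encodes squalene epoxidase, which acts on squalene at the start of sterol formation. A226Y mice had a lowest CPM of 14.4, a median of 21.7 and a highest of 54.0, and WT mice had 10.9, 37.5 and 111.9. No A226Y mouse lay below the lowest WT mouse: WT 28 and WT 4 were the lowest of all 18 animals, whereas WT 14, WT 33 and WT 6 stood above every A226Y mouse. With a log2 fold change of −1.10 (SE 0.42, adjusted p = 0.0786, edgeR), *Sqle* was not called. Leaving out WT 4, WT 28 or A226Y 23 gave adjusted p-values of 0.0412, 0.0385 and 0.0450, and leaving out WT 14 gave 0.191 (all edgeR). With limma-voom the log2 fold change was −0.675 and the adjusted p 0.313.

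The members were also compared singly, on log2 CPM and without adjustment, by a two-sided exact permutation test that used every way to split the 18 mice into 10 and 8. The exact p was under 0.05 for 7 of the 9 genes and was lowest for *Pmvk* (0.0059) and *Fdft1* (0.00603). It was 0.0661 for *Idi1* and 0.168 for *Sqle*. Leaving out 1 mouse at a time gave between 5 and 8 members with such a p.

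Relatives of the members that were not themselves counted as members were not called where they could be tested. *Acat1*, a mitochondrial thiolase, had a log2 fold change of −0.25 (adjusted p = 0.280, edgeR), and for *Acat3* it was −0.12 (adjusted p = 0.671). *Idi2* was too low to be tested. Because reads of *Acat3* and *Acat2* could have been counted for either gene, *Acat3* is not a separate contrast to the pathway.

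Levels of different genes were compared as TPM, a measure of transcript abundance corrected for exon length. The length was that of all annotated exons of a gene merged, which can exceed the length of the transcripts present. Other lengths were not tried. In WT liver *Hmgcs1* was the most abundant member with 110.1 ± 61.0 TPM (SD, n = 8), and it was above the next gene in all 18 mice. *Fdft1* (45.5 ± 15.1 TPM) and *Acat2* (43.1 ± 21.3 TPM) followed, with means that differed by less than their SD. *Fdft1* was the higher of the pair in 12 of the 18 mice of both genotypes. *Pmvk* came next with 33.8 ± 10.45 TPM.

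The lower part of the order held *Sqle* with 24.1 ± 19.3 TPM, *Fdps* with 19.9 ± 13.4 TPM, *Mvk* with 16.6 ± 8.64 TPM and *Mvd* with 14.7 ± 11.1 TPM (SD, n = 8 each). *Fdps* exceeded *Mvk* in 9 of the 18 mice when both genotypes were counted together. In A226Y mice the mean of *Fdps* was below that of *Mvk* (8.22 ± 3.40 against 8.91 ± 2.64 TPM, SD, n = 10), the reverse of the order in WT mice. This change of order was not tested. *Idi1* was lowest with 2.08 ± 1.44 TPM and was below *Mvd* in all 18 mice. In A226Y mice the mean TPM of *Hmgcs1* was 66.6 ± 27.1 and that of *Idi1* was 1.04 ± 0.435 (SD, n = 10 each), and these genes remained at the ends of the order.

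The members varied together from mouse to mouse. WT 14 had the highest CPM of all 18 mice for each of the 9 members, with a median of 1.32 above the WT mean on the log2 scale. WT 33 and WT 6 were among the highest 5 mice for all 9 members. WT 28, WT 4 and WT 21 had medians of −0.85, −0.78 and −0.51 and lay among the A226Y mice.

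Within the A226Y group the members were lowest in A226Y 29 (median of −1.44 from the WT mean), which had the lowest value of all mice for 5 genes. A226Y 32, A226Y 15 and A226Y 7 followed with medians between −1.34 and −0.99. A226Y 23 stood at −0.02, level with the middle WT mice WT 24 (−0.003) and WT 13 (0.04). *Acat2* broke the pattern in A226Y 5 and WT 28, where it was above its WT mean while the other 8 members were below theirs.

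**Figure D2:**
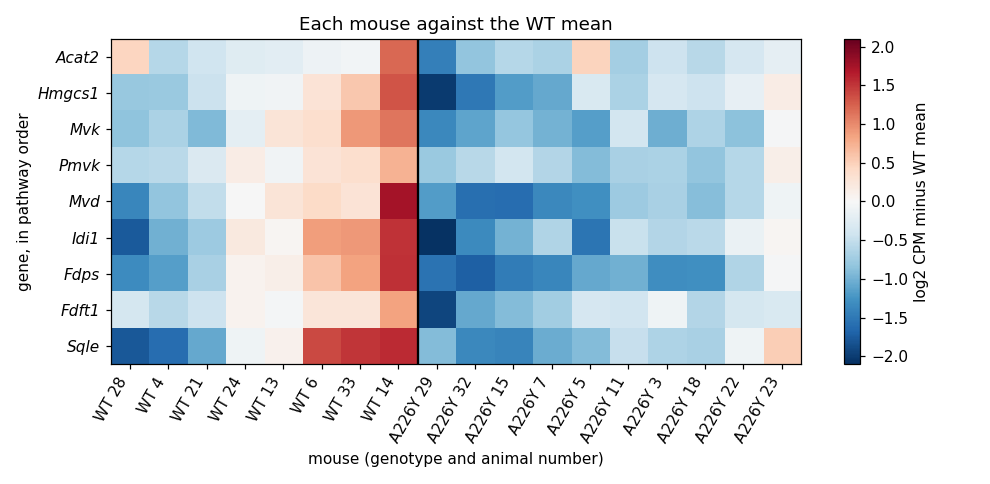
Log2 CPM of each gene (rows, in pathway order) minus the WT mean, for each mouse (columns, WT left of the line and A226Y right of it, each ordered by the median over the 9 genes). Red is above and blue below the WT mean: WT 14 is red throughout, with a median of 1.32, and A226Y 29 is blue throughout, with a median of −1.44.

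After the genotype means were removed, the correlation of each member with the mean of the other 8 over the 18 mice was highest for *Fdps* (Pearson r = 0.967) and lowest for *Acat2* (r = 0.503). The other 7 genes had r between 0.814 and 0.919. The 18 points share libraries and scaling, and these correlations are given as a description. Without the 2 mice farthest from the median, r was 0.946 for *Fdps* and between 0.721 and 0.899 for those 7 genes.

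The spread also differed between genotypes. The SD of log2 CPM was smaller in A226Y than in WT mice for 8 of the 9 members, by most for *Sqle* (0.58 against 1.39), and it was larger for *Fdft1* (0.53 against 0.46). Differences in spread were not tested.

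Ratios of consecutive members within a mouse show whether the steps changed unequally. None of the 8 ratios differed between genotypes with an unadjusted exact permutation p under 0.05. The lowest p was that of *Fdft1* to *Fdps*, whose log2 ratio was 0.46 higher in A226Y mice (1.88 ± 0.48 against 1.41 ± 0.57, SD, n = 10 and 8, exact p = 0.0803, adjusted p = 0.282 over the 8 ratios). The ratio of *Mvd* to *Pmvk* differed by −0.41 (exact p = 0.0892, adjusted p = 0.282) and that of *Sqle* to *Fdft1* by −0.02 (exact p = 0.965).

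The genes most like the members were sought among the 11932 tested genes that averaged 1 CPM or more, by the correlation of log2 CPM with the mean of the 9 members over 18 mice and with the genotype means removed. The median r of these genes was −0.013, and the 10 highest had r between 0.860 and 0.983. Those named here are *Cyp51* (r = 0.983), *Msmo1* (0.971), *Nsdhl* (0.952), *Gm43738* (0.924), *Mmab* (0.904), *Lss* (0.871) and *Srebf2* (0.860). *Cyp51*, *Msmo1*, *Nsdhl* and *Lss* encode enzymes of the later steps to cholesterol, *Mmab* encodes an enzyme of cobalamin metabolism, and *Gm43738* shares exon sequence with *Fdps*. Of the 10, 6 are in the lists of pathway genes described next. *Mmab* lies outside the lists used here and was called lower (log2 fold change −0.65, adjusted p = 0.0247, edgeR), a call that was lost without WT 14 (adjusted p = 0.0659), with the GC offset (0.0509) and with surrogate variables (0.146).

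Downstream of squalene, 7 of the 10 genes of the steps to cholesterol were called lower and none higher, where 7.03% of all tested genes were called lower. Their median log2 fold change was −0.61, against −0.004 over all tested genes. *Nsdhl*, a sterol dehydrogenase, fell by 1.26 on the log2 scale (adjusted p = 0.00611), *Cyp51*, the lanosterol demethylase, by 1.21 (adjusted p = 0.0222) and *Msmo1*, a methylsterol oxidase, by 1.35 (adjusted p = 0.0432, all edgeR). *Dhcr7*, *Sc5d* and *Tm7sf2*, which encode desaturating and reducing enzymes, fell by 1.002, 0.66 and 0.51 (adjusted p between 0.00185 and 0.0149, edgeR). *Tm7sf2* was separated best, with 9 of 10 A226Y mice below the lowest WT mouse. The call of *Msmo1* held in 5 of the 18 fits that left out 1 mouse and that of *Cyp51* in 17, being lost without WT 14 (adjusted p = 0.0648), and those of *Nsdhl*, *Dhcr7*, *Sc5d* and *Tm7sf2* held in all 18. Limma-voom called neither *Dhcr7* (adjusted p = 0.0521) nor *Msmo1* (adjusted p = 0.065), and *Msmo1* was not called without the filter on low counts (adjusted p = 0.0517, edgeR).

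*Lss*, which closes the ring of squalene epoxide, had a log2 fold change of −0.51 (adjusted p = 0.0534, edgeR), *Ebp* −0.20 (adjusted p = 0.162) and *Hsd17b7* 0.05 (adjusted p = 0.850), and these 3 genes were not called.

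The branch of farnesyl diphosphate that leads away from sterols, to geranylgeranyl diphosphate, dolichol, ubiquinone and prenylated proteins, had 1 gene called lower and 1 called higher among 18, against 14.3% of all tested genes called in either direction, and the median log2 fold change was 0.05. *Ggps1*, which makes geranylgeranyl diphosphate, measured 5.05 ± 0.62 CPM in the 10 A226Y mice and 4.69 ± 0.66 CPM in the 8 WT mice (mean ± SD, log2 fold change 0.11, adjusted p = 0.483, edgeR). *Zmpste24*, a protease that processes farnesylated proteins, rose by 0.18 on the log2 scale (adjusted p = 0.0217), and *Rabggta*, a subunit of Rab geranylgeranyl transferase, fell by 0.20 (adjusted p = 0.0382, both edgeR). The call of *Rabggta* was lost in 7 of the 18 fits that left out 1 mouse and with library size as the only scaling (adjusted p = 0.0890), and that of *Zmpste24* was lost without WT 24 (adjusted p = 0.0511).

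Upstream of the pathway, 2 of the 3 genes that supply cytosolic acetyl-CoA were called lower, against 7.03% of all tested genes. *Acly*, the ATP citrate lyase, fell by 0.55 on the log2 scale (adjusted p = 0.00531) and *Acss2*, which activates acetate, by 0.49 (adjusted p = 0.00607, both edgeR). Both were called in all 18 fits that left out 1 mouse. With surrogate variables *Acss2* was still called and *Acly* was not (adjusted p = 0.164, edgeR). *Slc25a1*, the mitochondrial citrate carrier, had a log2 fold change of −0.21 (adjusted p = 0.0581).

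Among the 7 genes that control SREBP, 3 were called lower and 2 higher, where 7.03% of all tested genes were called lower and 14.3% in either direction. *Srebf2* averaged 56.0 ± 8.5 CPM (SD) in the 10 A226Y mice and 77.7 ± 18.4 CPM (SD) in the 8 WT mice, with a log2 fold change of −0.47 (adjusted p = 0.0151, edgeR). *Srebf1*, whose product acts mainly on fatty acid synthesis, had a log2 fold change of −1.22 (adjusted p = 0.00551, edgeR), with means of 89.8 ± 40.7 CPM (SD) in the 10 A226Y mice and 208.6 ± 71.9 CPM (SD) in the 8 WT mice. *Insig1* and *Insig2* encode proteins that hold SREBP in the endoplasmic reticulum, and they moved in opposite directions.

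*Insig1*, itself a target of SREBP, fell by 0.69 on the log2 scale (adjusted p = 0.0227, edgeR), and *Insig2* rose by 1.13 (adjusted p = 0.00423, edgeR), with 111.3 ± 16.25 CPM (SD) in the 8 WT mice against 243.7 ± 131.0 CPM (SD) in the 10 A226Y mice. *Mbtps2*, a protease that helps release SREBP, rose by 0.38 (adjusted p = 0.0107, edgeR). *Scap*, the escort protein of SREBP, and *Mbtps1*, the other protease, were not called (log2 fold changes −0.19 and −0.01). The call of *Insig1* was lost without WT 14 or WT 24 (adjusted p = 0.0605 and 0.0511), and the other 4 calls held in all 18 fits that left out 1 mouse. *Srebf2* was not called with the GC offset (adjusted p = 0.0543). With surrogate variables *Insig2* alone stayed called. The adjusted p of *Srebf2*, *Srebf1*, *Insig1* and *Mbtps2* was then between 0.083 and 0.17 (edgeR).

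**Figure D3:**
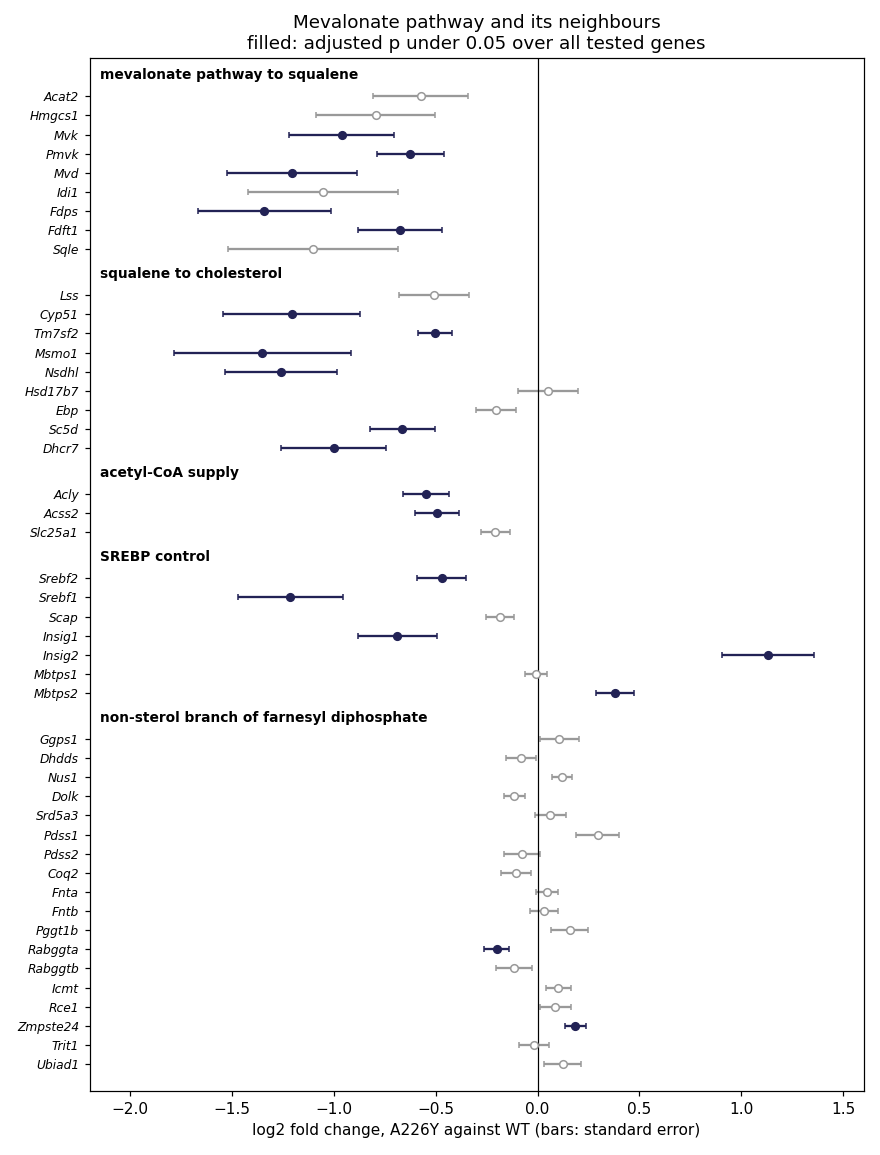
Log2 fold change of A226Y against WT mice (horizontal axis, bars are standard errors) for the 9 members and genes of 4 lists around them. Filled points passed an adjusted p of 0.05 over all tested genes: 5 of 9 members, 6 of the 9 genes drawn from squalene to cholesterol, 2 of 3 of acetyl-CoA supply, 5 of 7 of SREBP control and 2 of 18 of the non-sterol branch.

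Genes that follow feeding were examined beside the members. The genes of the fed state, which respond to insulin and glucose, all had negative log2 fold changes (9 of 9), and 4 were called lower, among them *Fasn*, *Pklr* and *Thrsp*, where 7.03% of all tested genes were called lower. Their summed level was 1233 to 3136 CPM in A226Y and 1626 to 4372 CPM in WT mice. The 10 genes of the fasted state all had positive log2 fold changes, and 3 were called higher (*Igfbp1*, *Ppargc1a* and *Tat*), against 7.27% of all tested genes, with sums of 13670 to 22080 CPM in A226Y and 6898 to 15170 CPM in WT mice. The largest part of this sum in A226Y mice, and of its difference, is *Cyp4a14*, which was not called (7116 ± 1507 CPM in A226Y and 3641 ± 2149 CPM in WT mice, SD, adjusted p = 0.0585, edgeR). *Cyp4a14* was called with DESeq2 (adjusted p = 0.00921), with limma-voom (0.0375) and in 4 of the 18 edgeR fits that left out 1 mouse. The call of *Tat* held in 12 and that of *Igfbp1* in 15 of the 18 fits that left out 1 mouse, and with surrogate variables none of the 3 was called (adjusted p = 0.108 to 0.716, edgeR).

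WT 14 and WT 33, the mice with the highest member levels, had the lowest sums of fasted-state genes (6923 and 6898 CPM). WT 28 and WT 4, which lay among the A226Y mice, had 13620 and 12960 CPM, but WT 21 had 8049 CPM and WT 6, whose members were high, had 15170 CPM. For the fed-state genes, WT 28 had the highest sum of all mice (4372 CPM), and A226Y 15 and A226Y 29, with low member levels, had the highest of the A226Y mice (3136 and 2819 CPM). Most of this sum is *Scd1*, a desaturase gene that was not called (1322 ± 701.3 CPM in A226Y and 1722 ± 957.2 CPM in WT mice, SD). *Thrsp*, which was called lower, was at 20.3 CPM in A226Y 15, the lowest of all 18 mice, and at 116.5 CPM in WT 28. The part of feeding or of the time of collection in the member values was not tested.

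The markers of liver cell types were checked in the same way. Of 10 hepatocyte genes, 2 were called higher (*Apob* and *Cps1*) and 1 lower (*Apoa2*), against 14.3% of all tested genes called in either direction. The call of *Apoa2* held in 5 and that of *Apob* in 10 of the 18 fits that left out 1 mouse, and with surrogate variables none of the 3 was called (adjusted p = 0.14 to 0.333, edgeR). The sum of the 10 genes was 108800 to 179700 CPM in A226Y and 124600 to 222100 CPM in WT mice. Most of this sum is *Alb*, which was not called (96060 ± 18760 CPM in A226Y and 90850 ± 25940 CPM in WT mice, SD). *Alb* held 5.1% of the counts in A226Y 29, its lowest share among the 18 libraries. Of 8 Kupffer cell and macrophage genes, *Clec4f* was called lower and 7 were not called, and the sums were 278.5 to 1083 CPM in A226Y and 415.6 to 841.1 CPM in WT mice. The call of *Clec4f* was lost without WT 14 (adjusted p = 0.0577, edgeR). A226Y 29, the mouse with the lowest member levels, had both the lowest hepatocyte sum and the highest Kupffer cell sum, and 5 members were called without it. In the fit without A226Y 29, 5 of the 8 Kupffer cell and macrophage genes were called lower (*Clec4f*, *Vsig4*, *Cd5l*, *Csf1r* and *Cd68*), against 10.3% of all genes tested in that fit.

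Of 8 stellate cell genes, 3 were called lower (*Col1a1*, *Col1a2* and *Col3a1*), where 7.03% of all tested genes were called lower, and the call of *Col1a2* held in 6 of the 18 fits that left out 1 mouse. With surrogate variables none of these 3 was called (adjusted p = 0.083 to 0.247, edgeR). No endothelial (8 tested), cholangiocyte (5) or leukocyte (8) gene was called. In the clock lists, *Clock* was called higher (log2 fold change 0.61) and the other 12 genes tested were not, where 14.3% of all tested genes were called in either direction. The part of these cell types and of the clock in the member values was not tested.

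In the fit with 4 surrogate variables, which called 0 of the 9 members, the lowest adjusted p was 0.133 (edgeR) and 5 members had an unadjusted p under 0.05. DESeq2 without such covariates called 6 members. All 9 log2 fold changes stayed negative with the surrogate variables, between −0.97 and −0.21, and the number of genes called over the whole table was 248 instead of 1910.

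**Figure D4:**
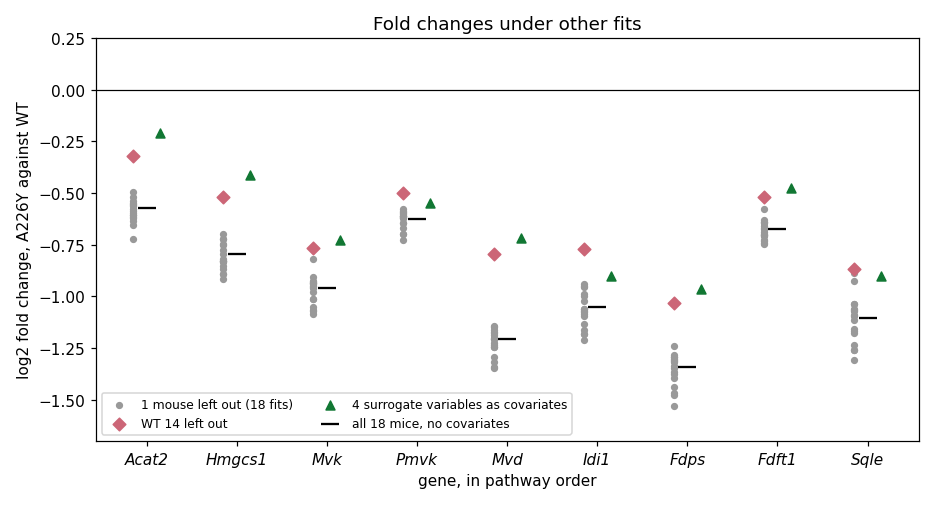
Log2 fold change of each member (vertical axis) with all 18 mice (black bar), with each mouse left out in turn (grey), with WT 14 left out (red diamond) and with 4 surrogate variables as covariates (green triangle). Every value lies below 0, and leaving out WT 14 moves *Mvd* from −1.21 to −0.79 and *Hmgcs1* from −0.80 to −0.52.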

How the data were processed

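For each of the 18 mice the authors deposited a table of raw read counts by Ensembl gene, in whole numbers and without normalization. The methods describe single-end sequencing and quantification with RSEM, while the submitters' processing notes list bcl2fastq, MultiQC, fastp, STAR, featureCounts and GRCm38, so which tool wrote the counts, and whether it used strand, is not given in the sources used here. Reads in overlapping or near-identical genes can therefore be assigned to either gene.

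Groups came from the genotype labels. A gene was kept where 50% or more of the mice of a genotype had 10 or more counts (13353 genes). Counts were scaled with TMM and compared with the two-sided quasi-likelihood test of edgeR 4.0.16 (R 4.3.3), without covariates, and p-values were adjusted by the Benjamini-Hochberg method. Standard errors were derived from the fold change and its F statistic, and the common coefficient of biological variation came to 0.194. Positions and exon lengths are from GENCODE annotation on GRCm38, and promoters from RefSeq on GRCm38.p6. Exact permutation tests (scipy 1.17.1) used log2 CPM with a prior count of 2. No 2 libraries of a genotype agreed within sampling noise (chi-square per degree of freedom of at least 20.1).

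Alternatives were RLE size factors, library size only, no filter beyond 1 count, filterByExpr, DESeq2 1.42.0, limma-voom 3.58.1, 4 surrogate variables (sva 3.50.0), length and GC offsets, and leaving out each mouse. The procedure was tested on simulated data. Named were the 9 members, *Rps2*, the called genes of the lists, *Srebf2*, *Ggps1* and the genes most like the members. *Acat1*, *Acat3*, *Idi2*, *Lss*, *Ebp*, *Hsd17b7*, *Slc25a1*, *Scap*, *Mbtps1*, *Alb*, *Ctsb*, *Gm43738*, *Scd1*, *Cyp4a14*, *Vsig4*, *Cd5l*, *Csf1r* and *Cd68* were named after their values were seen. The members and lists were chosen with earlier results of these data known. Replicates are separate mice. A few single genes are not reported here.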

Additional observations from a re-analysis of the deposited data

Results flagged for a closer look

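In 8 of the 18 combinations of a member and a genotype, the highest mouse stood apart from the rest by Dixon's criterion, applied to CPM without a log transform. The criterion is met in about 1 in 20 groups of normally distributed values. Whether CPM follows that distribution was not tested, so the 8 cases cannot be set against this rate. The members vary together, so these cases are not independent of each other. WT 14 was the mouse concerned for 4 genes: *Acat2* at 93.3 CPM (next WT mouse 55.2), *Hmgcs1* at 452 CPM (next 269), *Mvd* at 30.2 CPM (next 11.9) and *Fdft1* at 132 CPM (next 87.9). A226Y 23, the most deeply sequenced library, was the mouse concerned for *Pmvk* at 24.2 CPM (next A226Y mouse 16.9), *Fdps* at 27.2 CPM (next 17.8) and *Sqle* at 54.0 CPM (next 35.4). A226Y 5 stood apart for *Acat2* at 55.7 CPM (next 35.3), while its other 8 members were below the WT mean. The cause was not tested for any of these mice.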

How the results depend on the processing

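All 9 members kept a negative log2 fold change under every alternative run. RLE size factors, library size only, both other filters and the length and GC offsets each gave 5 members called lower (with the GC offset *Idi1* in place of *Fdft1*), DESeq2 called 6, limma-voom 3 and the fit with 4 surrogate variables 0. Leaving out 1 mouse gave 2 to 8 members. With surrogate variables the calls fell from 1910 to 248 over all genes, and to 1 from squalene to cholesterol, 1 in acetyl-CoA supply, 0 lower and 1 higher in SREBP control, and 0 in either direction in the non-sterol branch. The cause was not tested. In that branch the lower call was also lost (0) with library size only, no filter, and the length or GC offset, the higher count was 0 with the GC offset and 2 with DESeq2, and each was 0 to 1 when 1 mouse was left out. Over all genes that gave 1255 (without WT 14) to 2560 calls. Scaling by library size only moved the share of higher calls from 50.8% to 67.9%, and the median log2 fold change of all genes from −0.004 to 0.039. In single permutation tests, the exact p of *Acat2* was 0.0641 with library size only. No paired analysis was possible because the genotypes share no animal numbers. *Idi1* had the lowest counts of the members, down to 17, and how far depth limits it was not tested.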
